A study of Mus musculus with 16 samples.

Results

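The peak lists of H3K18la were set against those of H3K27ac in macrophages from injured muscle. All 4 H3K18la libraries and all 4 H3K27ac libraries were taken, 8 of the 16 libraries of the series. Peaks of the 8 lists that overlapped by at least 1 bp were joined into 46128 places. A place was called shared where every one of the 8 libraries had a peak in it, which held for 6305 places.

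H3K18la is the lactylation of lysine 18 of histone H3, a mark tied to lactate and glycolysis. H3K27ac is the acetylation of lysine 27, which is found at active promoters and active enhancers. Both are acyl marks that neutralise the charge of the lysine. H3K4me3, the trimethylation of lysine 4, sits at active promoters, and H3K27me3, the trimethylation of lysine 27, covers genes silenced by Polycomb. The lists of these last marks served here as further readouts of what kind of chromatin a place was.

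The cells were CD45+CD11b+F4/80+CD64+ macrophages sorted from the calf muscle of C57BL6J wild type males of 8 to 12 weeks, after hind limb ischemia by ligation of the femoral artery. Sampling was at 2 or at 4 days after the injury (dpi), and each mark had 2 libraries at each time. CUT&Tag was used, in which an antibody brings a transposase to the mark so that the DNA around it is cut out and sequenced. No uninjured muscle was profiled, so every group carried the injury. The labels number the libraries as replicates and do not say which mice or sorts they came from, so the p-values measure the spread between these libraries. Gene annotation of GRCm39, the build of the lists, was not used here, so the sorted cell type could not be checked at marker genes and places are given by position only.

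The name of each deposited list holds a code, and the labels do not say what kind of batch it stands for. All 4 H3K18la libraries shared 1 code, 3 H3K27ac libraries shared a second and H3K27ac 4 dpi replicate 1 had a code of its own, so mark and code cannot be told apart. The H3K4me3 and H3K27me3 libraries carried the code of H3K18la. H3K18la lists held 15190 to 27578 peaks over 25.3 to 46.0 Mb, and H3K27ac lists 24976 to 35971 peaks over 37.8 to 205 Mb. H3K27ac 4 dpi replicate 1 stood apart before any comparison: 10.8% of its peaks were over 10 kb long, against at most 0.53% in the other 7 lists. Values of this library, or without it, are given for several results below, but not for all that include it. Read depth is unknown, since the lists hold no read counts.

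Most places with H3K18la in 4 of 4 libraries had H3K27ac in 4 of 4 as well, but not the reverse. A peak of all 4 H3K18la libraries was found at 7701 places, and 6305 of these (81.9%) had H3K27ac in 4 of 4 libraries as well. Only 56 (0.727%) had no H3K27ac peak in any library. H3K27ac was present in 4 of 4 libraries at 13487 places, of which 46.7% had H3K18la in 4 of 4 and 2469 (18.3%) had it in none. The places with both marks are the same in both directions, so which share is larger is set by the number of places of each mark. The order was the same on each day. At 2 dpi, 75.5% of the 10256 places with H3K18la in both libraries had H3K27ac in both, against 52.0% the other way round among 14896 places. At 4 dpi the shares were 91.2% of 9323 and 43.5% of 19559 places. H3K27ac 4 dpi replicate 1 enters the shares at 4 dpi, and they were not computed without it. Lists of different lengths enter these shares, and 70.4% of the 16743 places with H3K27ac in 1 library and no H3K18la came from H3K27ac 4 dpi replicate 1. Of the 2402 places with H3K18la in 1 library and no H3K27ac, 82.7% came from H3K18la 2 dpi replicate 1, the longest of the H3K18la lists.

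**Figure D1:**
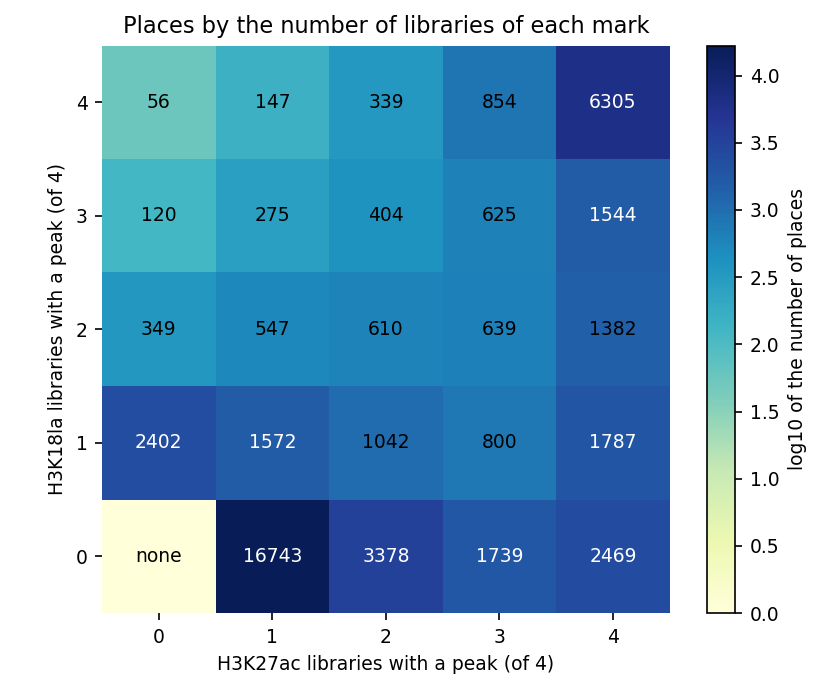
Number of places by how many of the 4 H3K27ac libraries (horizontal) and of the 4 H3K18la libraries (vertical) had a peak, coloured by the log10 of the number. The corner with both marks in all libraries holds 6305 places, the H3K18la-only corner 56 and the H3K27ac-only corner 2469.

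How often one mark accompanied the other followed the strength of the other. Places with H3K27ac in 4 of 4 libraries were cut into 10 groups of equal size by their mean percentile of summed signal. H3K18la was in 4 of 4 libraries at 14.4% of the weakest group and 97.2% of the strongest. Among those with H3K4me3 in 4 of 4 libraries the share went from 3.47% to 97.2%. Without any H3K4me3 it was already 27.9% in the weakest group, 50% in the group ranked 3 and 89.2% in the strongest, which held 37 such places. So at H3K27ac places of like strength, except the strongest group, H3K18la was more frequent where H3K4me3 was absent: in the group ranked 5 it was in 4 of 4 libraries at 68.7% of 233 places without H3K4me3 and at 20.1% of 950 places with it. In the other direction the picture turned. Places with H3K18la in 4 of 4 libraries had H3K27ac in 4 of 4 at 53.2% of the weakest group and 99.9% of the strongest. With H3K4me3 the share was 91.2% or more in each of the 10 groups, and without it it went from 20.7% to 98.1%. These shares are descriptions with no test, since both marks were called by the same rule on lists of unequal length.

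**Figure D2:**
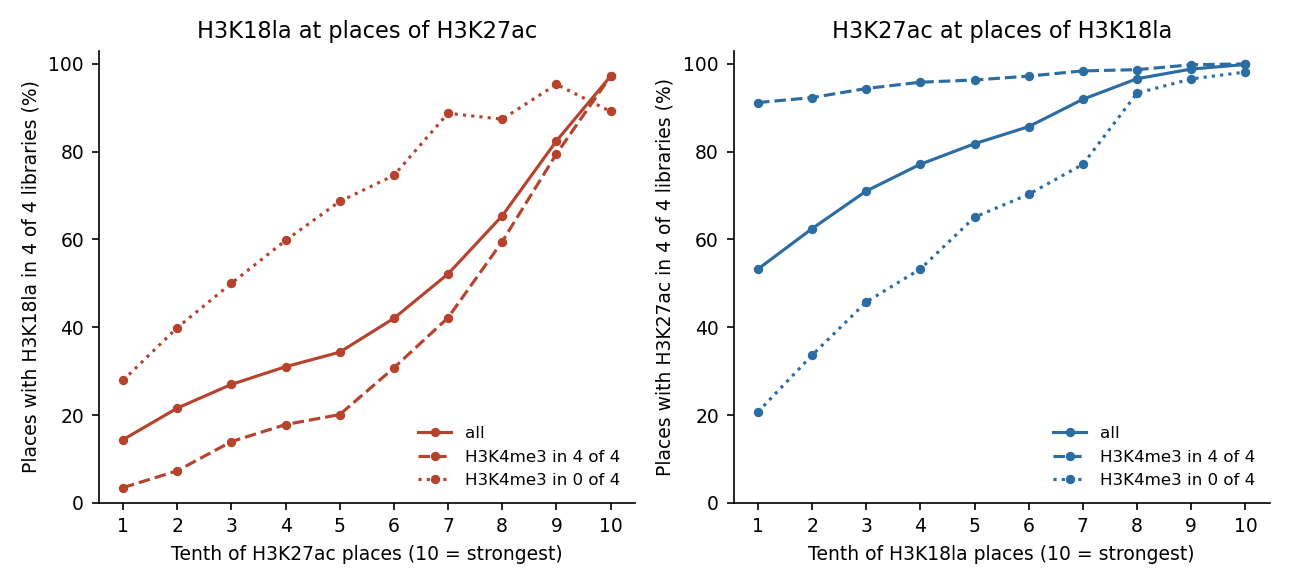
Share of places (%) at which the other mark had a peak in 4 of 4 libraries, by 10 groups of rising strength of H3K27ac (left) or H3K18la (right), for all places and for those with H3K4me3 in 4 or in 0 of 4 libraries. The line without H3K4me3 lies above the line with it on the left in all groups but the strongest, and below it on the right.

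A larger share of the H3K18la lists lay inside the H3K27ac lists than the reverse. The overlapping bases of a pair are the same in both directions, so which base share is larger is set by the covered length of the lists. Over the 8 pairs of libraries of the same day, 76.4% ± 15.1 of H3K18la bases were inside H3K27ac peaks (mean ± SD of 4 H3K18la libraries, pairs from 46.6% to 95.9%). Of H3K27ac bases, 34.7% ± 13.1 were inside H3K18la peaks (4 H3K27ac libraries, pairs from 12.1% to 56.7%). Whole peaks behaved alike: 47.5% ± 23.0 of H3K18la peaks lay wholly inside a single H3K27ac peak, and 7.13% ± 6.01 of H3K27ac peaks inside a single H3K18la peak. The pair of H3K18la 2 dpi replicate 1 with H3K27ac 2 dpi replicate 2 was the one exception, with 46.6% of H3K18la bases inside H3K27ac and 56.7% the other way. It is also the same-day pair in which the H3K18la list covered more, 46.0 Mb against 37.8 Mb, and without that H3K27ac list the share of H3K27ac peaks wholly inside H3K18la was 3.86%. The 2 pairs with H3K27ac 4 dpi replicate 1 were the most lopsided, at 95.9% and 95.2% of H3K18la bases. In these pairs 90.9% and 88.5% of H3K18la peaks lay wholly inside an H3K27ac peak. Without H3K27ac 4 dpi replicate 1 the mean share of such H3K18la peaks was 36.1%. Peaks that touched the other mark were 80.6% ± 12.8 of the peaks of an H3K18la list (pairs from 55.3% to 94.2%). They were 44.5% ± 10.1 of those of an H3K27ac list (pairs from 29.0% to 63.4%). In terms of signal, peaks that touched the other mark held 91.1% ± 5.67 of the total signal of an H3K18la list and 67.2% ± 6.51 of that of an H3K27ac list. Values of one mark use the lists of the other, so no test was run.

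**Figure D3:**
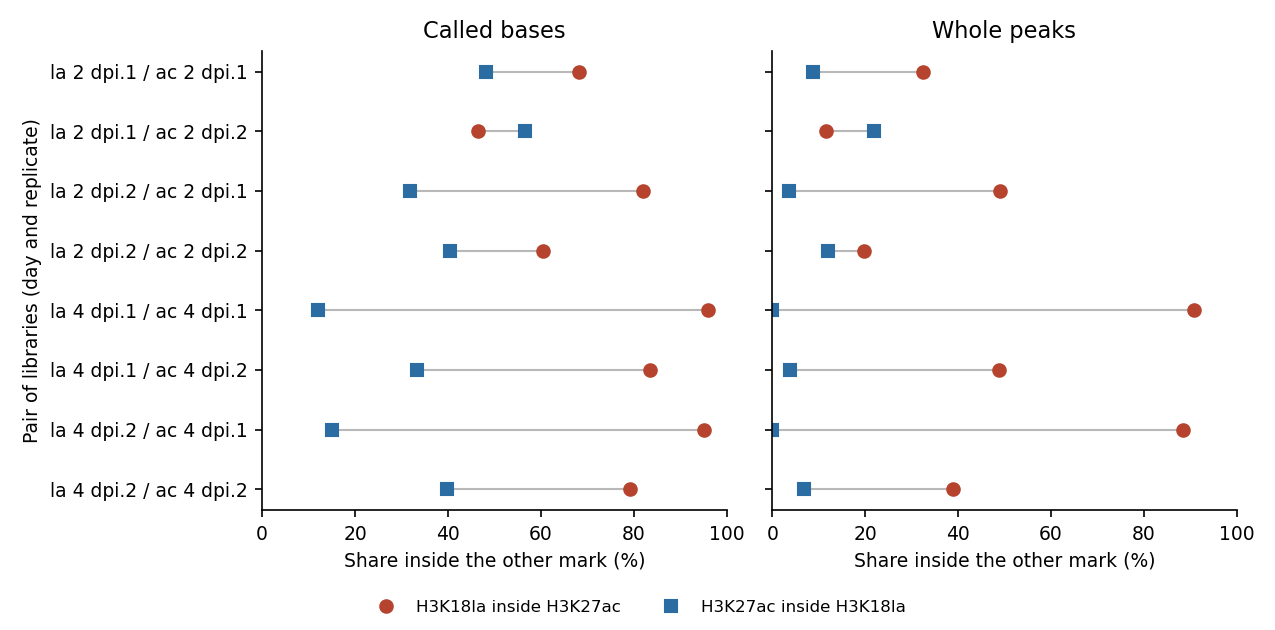
Share (%) of called bases (left) and of whole peaks (right) of one mark that lie inside peaks of the other, for the 8 pairs of libraries of the same day, named by H3K18la (la) and H3K27ac (ac) library with day and replicate. Circles show H3K18la inside H3K27ac and squares the reverse, and the circle lies to the right of the square in all pairs but la 2 dpi.1 with ac 2 dpi.2.

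Within shared places the called length, the summed length of the peaks of a library, differed less clearly. Its median per shared place was 3246, 2188, 2184 and 2643 bp in the H3K18la libraries (2 dpi replicates 1 and 2, then 4 dpi replicates 1 and 2). In the H3K27ac libraries it was 3958, 2484, 8364 and 3864 bp in that order. The groups overlapped, since H3K27ac 2 dpi replicate 2 was shorter than 2 of the H3K18la libraries. The means were 2565 ± 502 and 4668 ± 2555 bp (SD, n = 4), and the exact permutation test gave p = 0.0857 (adjusted 0.171, 2-sided, over 6 measures). The difference was -504 bp at 2 dpi and -3700.5 bp at 4 dpi. Without H3K27ac 4 dpi replicate 1 the difference of the means went from -2102 to -603 bp.

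Fitted place by place with limma on log2 length, H3K27ac was longer at 565 of the 6305 shared places (8.96%) and H3K18la was longer at 0 (0%). Without adjustment, 1903 places had a p under 0.05, and the median log2 difference, H3K18la minus H3K27ac, was -0.63. The count was decided by single libraries. It fell to 0 without H3K27ac 2 dpi replicate 1. It was 60 and 75 without H3K18la 2 dpi replicate 2 and 4 dpi replicate 1, and 42 without H3K18la 4 dpi replicate 2. It was 113 and 166 without H3K27ac 4 dpi replicates 1 and 2. It rose to 1191 without H3K18la 2 dpi replicate 1 and to 1181 without H3K27ac 2 dpi replicate 2. Leaving out a library also changed the number of shared places, which was then 6339 to 7069. With each list reduced to its stronger 50% of peaks by maximum signal the count was 13 of 2618 shared places.

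The 5 named places of this kind were taken among those whose groups did not overlap, and all 5 had H3K4me3 in 4 of 4 libraries. On chromosome 14 from 45877109 to 45902840 (GRCm39), H3K18la peaks covered 813, 1056, 563 and 1054 bp and H3K27ac peaks 6601, 3336, 25562 and 10948 bp. On chromosome 10 from 79976178 to 80005334 the H3K18la libraries covered 6801, 608, 1777 and 3542 bp, and the H3K27ac libraries 24916, 17608, 28992 and 21389 bp. At both places the H3K27ac 4 dpi replicate 1 list was the longest. The log2 differences of the 5 places ran from -3.39 to -3.03, all at an adjusted p of 0.0136 by limma, and without H3K27ac 2 dpi replicate 1 they were -3.40 to -3.02 at an adjusted p of 0.0597.

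Strength was compared as a rank, because summed signal is not normalised between libraries. The signal of a library in each shared place was turned into a percentile among the 6305 places and then into a normal score, the value with that percentile on a standard normal scale. The shift is the normal score of H3K18la minus that of H3K27ac, with the day as a covariate in limma. At 1381 shared places (21.9%) the rank was higher in H3K18la and at 1309 (20.8%) higher in H3K27ac, 2690 in all (42.7%), at an adjusted p under 0.05. All 4 libraries of one mark lay above all 4 of the other at 1071 of the 6305 shared places for H3K18la and at 1024 for H3K27ac. Ranks are relative, so a gain of one set of places is a loss of another. Ranked by signal per called base, which takes the length out, the counts were 588 (9.33%) and 689 (10.9%). In the stronger 50% of peaks, with 2618 shared places, they were 536 (20.5%) and 499 (19.1%).

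The places of the 2 directions differed in H3K4me3, which the ranking did not use. Of the 1309 places higher in H3K27ac, 94.9% had H3K4me3 in 4 of 4 libraries and 1.99% in none. Of the 1381 places higher in H3K18la, 36.4% had it in 4 of 4 and 38.7% in none. Among all 6305 shared places, 63.4% had it in 4 of 4 and 1325 in none. Read the other way, the 1325 shared places without H3K4me3 held 534 calls for H3K18la (40.3%) and 26 for H3K27ac (1.96%), with a median shift of 0.58. The 3999 places with H3K4me3 in 4 of 4 libraries held 503 (12.6%) and 1242 (31.1%), with a median shift of -0.24. Places with H3K4me3 in 1, 2 and 3 libraries had median shifts of 0.47, 0.43 and 0.35.

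**Figure D4:**
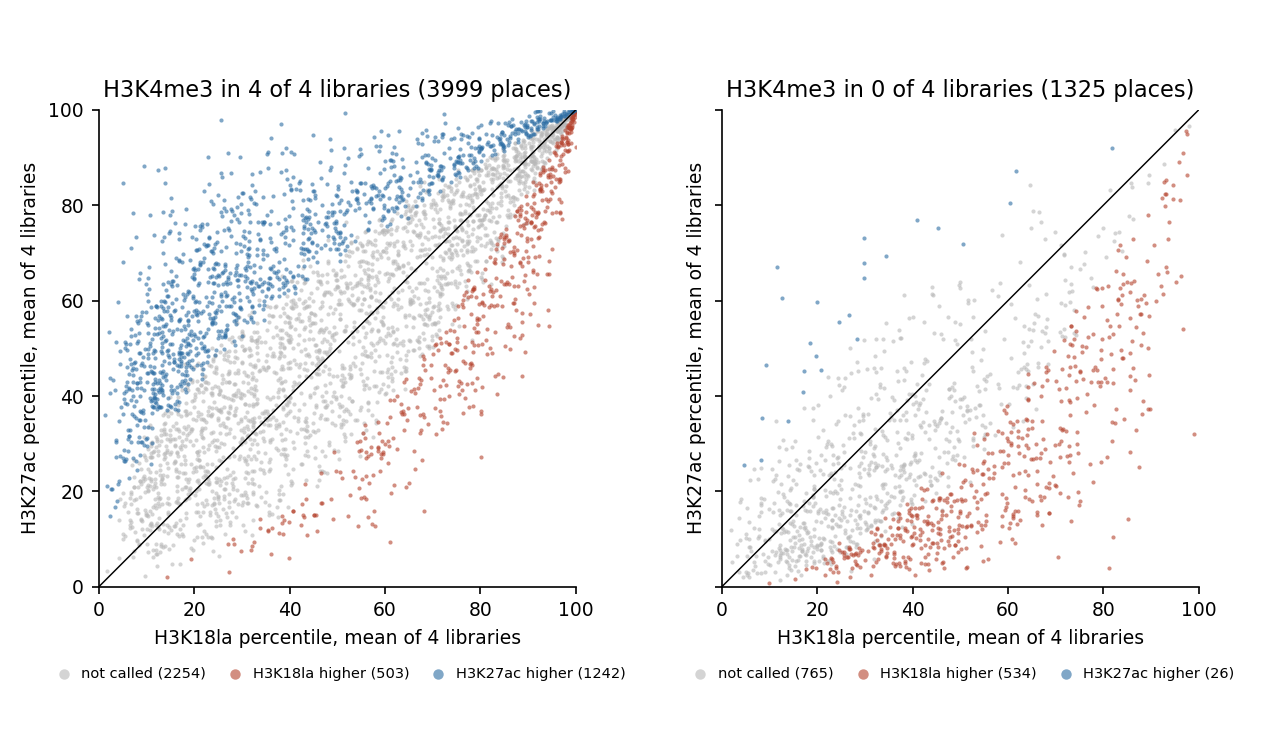
Mean percentile of summed signal among shared places in the 4 H3K18la libraries (horizontal) and the 4 H3K27ac libraries (vertical), for places with H3K4me3 in 4 of 4 (left) and 0 of 4 libraries (right). The line marks equal percentiles, colours mark the limma calls, and 534 of 1325 places on the right are called for H3K18la against 26 for H3K27ac.

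The contrast was seen in each library. At places without H3K4me3 the median percentile was 41.1, 43.9, 40.2 and 43.3 in the H3K18la libraries and 21.1, 21.1, 26.7 and 20.6 in the H3K27ac libraries. At places with H3K4me3 in 4 of 4 it was 52.6, 51.3, 52.3 and 51.7 for H3K18la, and 63.4, 63.8, 58.4 and 61.7 for H3K27ac. The groups did not overlap in either class. The gap between the classes was wider in each H3K27ac library than in any H3K18la library. The planned measure of this took the median percentile at places with H3K4me3 in 4 of 4 libraries minus that at the 891 shared places over 10 kb from any H3K4me3 peak. It was 9.55, 4.52, 10.6 and 6.69 points in the H3K18la libraries and 42.0, 41.9, 28.9 and 40.8 points in the H3K27ac libraries. The means were 7.83 ± 2.75 and 38.4 ± 6.37 (SD, n = 4), with p = 0.0286 in the exact permutation test, the smallest it can give, and 0.0857 after adjustment over 6 measures. The difference was -34.9 points at 2 dpi and -26.2 at 4 dpi. H3K27ac 4 dpi replicate 1 was the lowest of its mark, and without it the difference of the means was -34.5 points. With each list cut to its strongest peaks, as many as the shortest list held (lists of equal length), it was -35.1 points at an adjusted p of 0.0429. The unadjusted p was already the smallest possible with the full lists, so the lower adjusted p came from other measures of the 6.

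**Figure D5:**
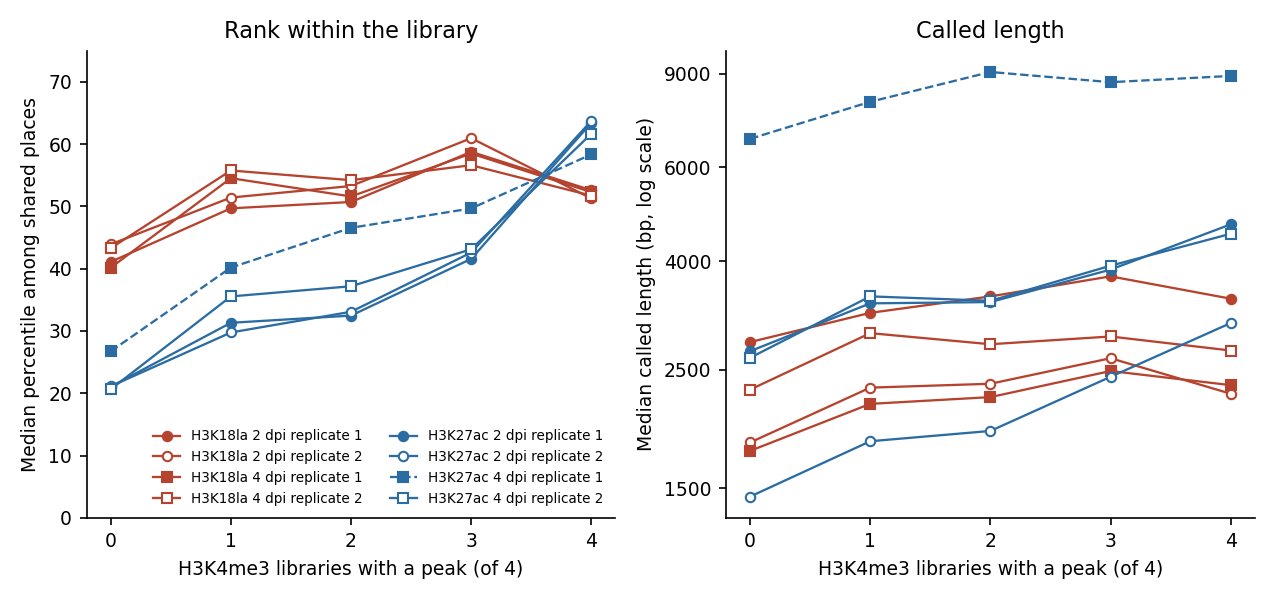
Median percentile of signal among shared places (left) and median called length in bp on a log scale (right) for each of the 8 libraries, by the number of H3K4me3 libraries with a peak at the place. H3K18la libraries lie between 40.2 and 43.9 without H3K4me3, above the 20.6 to 26.7 of H3K27ac, and the order turns at 4 of 4.

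The shift was also read by distance from H3K4me3 and by length. Among places without H3K4me3, the 434 shared places up to 10 kb from H3K4me3 had a median shift of 0.49, the 665 at 10 to 50 kb 0.59, the 138 at 50 to 100 kb 0.72 and the 88 beyond 100 kb 0.61. In each quartile of place length the shift was above 0 without H3K4me3 and below 0 with it. In the shortest quartile (up to 5532 bp) it was 0.79 at 458 places without and -0.33 at 881 places with H3K4me3. In the longest (over 13335 bp) it was 0.27 at 186 and -0.24 at 1138. The value of 0.27 differed by day, with 0.49 at 2 dpi and 0.02 at 4 dpi. There the median percentile of H3K27ac 4 dpi replicate 1 was 75.9, above the 60.4 to 65.5 of the H3K18la libraries, and the other H3K27ac libraries were at 37.5 to 57.3. Place length is set in part by the H3K27ac peaks themselves. Among places with H3K4me3 in 4 of 4 libraries the shift also followed the H3K4me3 length, the mean number of bases of the place inside H3K4me3 peaks. From the shortest to the longest quartile of H3K4me3 length it was 0.10, -0.29, -0.35 and -0.37, and the share called for H3K27ac was 11.2%, 29.2%, 37.1% and 46.7%. The places of the longest quartile were strong in both marks, at median percentiles of 77.8 ± 1.11 in H3K18la and 87.1 ± 1.33 in H3K27ac (SD, n = 4), and higher in the second. They were also long places, with a median of 15245 bp against 6447.5 bp in the shortest quartile. Summed signal rose with place length, so H3K4me3 length and place length were not separated here.

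The highest point of a place, where the maximum signal lay, was also placed differently. At shared places with H3K4me3 in 4 of 4 libraries, it lay inside an H3K4me3 region in 88.2%, 87.9%, 89.1% and 88.8% of places in the H3K18la libraries, and in 93.3%, 92.6%, 92.9% and 92.8% in the H3K27ac libraries. The groups did not overlap, with means of 88.5 ± 0.575 and 92.9 ± 0.281 (SD, n = 4) and p = 0.0286 in the exact permutation test (0.0429 adjusted over 3 measures added after seeing the data). The difference of -4.41 points became -1.31 without H3K27ac 4 dpi replicate 1 and -0.674 (adjusted p = 0.314) where that library was left out of the joining of places.

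The 10 named places higher in H3K18la spread over 6 chromosomes. Of these, 4 had no H3K4me3 in any library and 4 had it in 4 of 4. The rule took the smallest adjusted p among places whose groups did not overlap. A pair lay 12.5 kb apart on chromosome 5. In the first, from 18036752 to 18045639, the percentiles were 96.2, 95.8, 90.5 and 95.1 in H3K18la and 62.6, 54.6, 45.3 and 55.8 in H3K27ac. The shift was 1.50 ± 0.14 (SE), with an adjusted p of 3.13e-05 by limma. In the second, from 18058181 to 18064999, they were 96.9, 97.0, 89.3 and 94.4 against 67.7, 69.1, 57.3 and 67.9. Both had H3K4me3 in 4 of 4 libraries, as did 77.6% of the 771 places in the strongest of the 10 groups by H3K18la strength. Another pair, 302 bp apart on chromosome 2, began at 140622938 and 140629333. The first had a mean percentile of 93.2 ± 2.80 for lactylation against 59.5 ± 8.32 for acetylation, and the second 96.8 ± 1.53 against 78.2 ± 9.38 (SD, n = 4).

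The widest of the 10 shifts was on chromosome 13 from 112566340 to 112573546, a place without H3K4me3 that ended 0.674 kb from the nearest H3K4me3 peak. Its percentiles were 85.8, 95.5, 86.9 and 72.1 in H3K18la and 11.3, 14.8, 20.6 and 10.1 in H3K27ac. Its called length was 2908, 2467, 2078 and 2575 bp in H3K18la and 2917, 1125, 7207 and 2424 bp in H3K27ac. The groups overlapped in length and stood far apart in rank. Named places without H3K4me3 further from it were on chromosome 12 from 8874856 to 8884639 (29.2 kb away, mean percentiles 95.3 ± 2.73 and 63.8 ± 12.9), chromosome 10 from 120457059 to 120473907 (26.2 kb, 97.5 ± 1.17 and 86.2 ± 1.56) and chromosome 5 from 90841756 to 90850571 (68.0 kb, 89.8 ± 5.03 and 37.3 ± 10.7). Each was among the stronger places of H3K18la, while the levels in H3K27ac ranged from low to high.

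Beyond the named places, the widest gaps in mean percentile were sought after the values were seen, with chromosome 18 left out. The widest with H3K18la higher was on chromosome 17 from 24473779 to 24476790, a place of 3012 bp with neither H3K4me3 nor H3K27me3. H3K18la stood at 78.6, 85.6, 91.5 and 69.2 and H3K27ac at 2.24, 11.3, 0.00793 and 2.05. This place was picked for its gap, so being strong in one mark and weak in the other follows from the choice. A place on chromosome 16 from 3458328 to 3481303 was at 98.5 to 99.5 in all 4 H3K18la libraries, and at 40.5, 1.34, 84.6 and 2.02 in H3K27ac. There the H3K27ac libraries stood far apart from each other on both days, and H3K27me3 was called in 2 libraries.

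All 10 named places higher in H3K27ac had H3K4me3 in 4 of 4 libraries, and they were long, with a median of 19644 bp against 8726 bp for those higher in H3K18la. On chromosome 15 from 82904243 to 82924850 the percentiles were 19.6, 8.37, 5.80 and 3.88 in H3K18la and 92.5, 89.0, 89.9 and 81.0 in H3K27ac. The shift was -2.60 ± 0.22 (SE), with an adjusted p of 2.17e-05 by limma. The same place was among the 5 named for length, with 2789, 1126, 597 and 1846 bp against 15824, 8006, 20055 and 9979 bp. Ranked by signal per called base, its shift was -0.88 at an adjusted p of 0.302, so it was called by summed signal and not by signal per base. On chromosome 7 from 6145641 to 6161057 the gap was the widest in this direction among shared places outside chromosome 18, which was left out of this search. Its percentiles were 8.97, 9.29, 0.579 and 1.32 in H3K18la against 82.1, 82.6, 85.8 and 88.3 in H3K27ac.

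Other named places higher in H3K27ac were of middle or high rank in H3K18la. On chromosome 11 from 69570220 to 69588899 H3K18la was at 52.6, 49.1, 42.5 and 35.7 and H3K27ac at 92.7, 96.3, 93.6 and 96.0. On chromosome 6 from 47713974 to 47731471 both marks were near the top, at 95.1, 85.9, 94.3 and 92.7 in H3K18la and 99.7, 99.7, 99.7 and 99.6 in H3K27ac. On the normal-score scale the shift was -1.28 ± 0.11 (SE). Called for H3K27ac by rank but not by signal per called base were also those beginning at 115679703 on chromosome 4 (adjusted p = 0.403), 56321500 on chromosome 17 (0.162) and 91653770 on chromosome 6 (0.507).

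Overlap with H3K27me3, by at least 1 bp, was counted too. H3K27me3 had a peak in any library at 590 shared places (9.36%) and in 4 of 4 at 265. The share in any library was 10.6% of all 7701 places with H3K18la in 4 of 4. It was 8.46% of all 13487 places with H3K27ac in 4 of 4. The 590 had a median shift of 0.22, with 180 (30.5%) called for H3K18la and 93 (15.8%) for H3K27ac, against 21.9% and 20.8% of all shared places. The share of the peaks of a list that touched regions of H3K27me3 in 4 of 4 libraries was 3.91% ± 0.517 in H3K18la and 4.18% ± 1.39 in H3K27ac (SD, n = 4, adjusted p = 0.914, exact permutation test), and the highest, 6.17%, was in H3K27ac 4 dpi replicate 1.

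The X chromosome, single in these males, held 67 shared places, with a median shift of 0.43 against 0.02 at the 6234 autosomal places. Both marks ranked lower there. The median percentile on X minus that on autosomes was -11.9, -14.1, -14.3 and -11.1 in the H3K18la libraries and -16.4, -20.7, -36.2 and -21.2 in the H3K27ac libraries. The means were -12.8 ± 1.58 and -23.6 ± 8.66 (SD, n = 4, p = 0.0286, adjusted 0.0429 over 3 added measures, exact permutation test), and the difference of 10.8 points became 8.80 without H3K27ac 4 dpi replicate 1. It was 5.07 (adjusted p = 0.814) in lists of equal length and 3.81 (0.257) by signal per called base, and leaving out single libraries gave adjusted p from 0.0429 to 0.129. The median place was 4706 bp on X and 8652.5 bp on autosomes. At the 49 X places with H3K4me3 in 4 of 4 libraries the shift was 0.22, against -0.24 at 3946 autosomal places of that class. Among autosomes the median shift ranged from -0.13 on chromosomes 7 and 11 to 0.18 on chromosome 10.

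Places of one mark only were few for H3K18la and many for H3K27ac, and in both marks their median rank was below that of all places with the mark in 4 of 4 libraries. The 56 places with H3K18la in 4 of 4 libraries and H3K27ac in none had a median length of 1636 bp, and 55 of them (98.2%) had no H3K4me3, against 30.8% of all 7701 places with H3K18la in 4 of 4. Their mean percentile among all places of an H3K18la library had a median of 34.7, with 7 above 50, against a median of 66.6 for the 7701. H3K27me3 lay on 9 of the 56, and 3 were on X. The 2469 places with H3K27ac only had a median length of 3989 bp. H3K4me3 was in 4 of 4 libraries at 1950 of them (79.0%) and in none at 277 (11.2%), against 70.0% and 17.9% of all 13487 places with H3K27ac in 4 of 4. Their mean percentile had a median of 49.6, with 1207 above 50 and the highest at 91.5, against a median of 67.2 for the 13487. The weakest of the 10 groups by H3K27ac strength held 587 of them and the strongest held 0. Their median distance to the nearest shared place was 84.0 kb, against 29.3 kb for the H3K18la-only places.

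These counts depend on the length of the lists. Lists of equal length gave 412 places of H3K18la only, 86.7% without H3K4me3, and 1225 of H3K27ac only, 95.2% with H3K4me3 in 4 of 4 libraries. Leaving out a library, which also loosens the rule, gave 59 to 163 places of H3K18la only. It was 163 without H3K27ac 4 dpi replicate 1 and 111 and 90 without H3K18la 4 dpi replicates 1 and 2. It was 88 without H3K18la 2 dpi replicate 2, and 97 and 90 without H3K27ac 2 dpi replicate 1 and 4 dpi replicate 2. H3K27ac-only places numbered 3845 without H3K18la 2 dpi replicate 1.

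The strongest H3K18la-only place was on chromosome 1 from 161128089 to 161130032, 30.8 kb from the nearest H3K4me3 peak, with percentiles of 73.3, 70.0, 57.9 and 79.7 among the places of the libraries. On chromosome 2 from 171132160 to 171133991 they were 83.0, 66.7, 60.9 and 50.3, and the nearest shared place was 942 kb away. On chromosome X from 138449083 to 138453360 they were 87.8, 73.2, 0.160 and 69.4, so 1 library was at the bottom of its list. The 10 named places of this kind all lacked H3K4me3 and were at most 4278 bp long.

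The strongest H3K27ac-only place was on chromosome 2 from 173578524 to 173599987. H3K27ac peaks covered 10859, 5204, 21464 and 9431 bp of it, at percentiles of 91.6, 87.8, 96.9 and 89.9, with no H3K18la peak in any library. On chromosome 5 from 114507967 to 114522150 the percentiles were 89.5, 94.7, 91.4 and 86.9, and the nearest shared place was 262 kb away. On chromosome 13 from 58547201 to 58552839 they were 91.0, 93.6, 82.7 and 91.6. All 10 named places of this kind had H3K4me3 in 4 of 4 libraries, and their mean percentiles lay between 87.5 and 91.5.

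Shared places held a larger share of the signal in each H3K18la list than in any H3K27ac list. The share of the total signal of a list was 73.5%, 84.2%, 81.5% and 80.1% for H3K18la and 60.1%, 65.0%, 44.4% and 62.1% for H3K27ac. The groups did not overlap, with means of 79.8 ± 4.58 and 57.9 ± 9.20 (SD, n = 4), p = 0.0286 and 0.0857 adjusted over 6 measures in the exact permutation test. The difference was 21.9 points, 16.3 at 2 dpi and 27.5 at 4 dpi, and 11.4 points (adjusted p = 0.0429) in lists of equal length. List length enters this share, since a shared place needs a peak in all 8 lists. Shared places were 32.1% to 58.8% of the places of an H3K18la library and 17.6% to 36.1% of those of an H3K27ac library. The strongest 10% of peaks held 40.5% ± 3.55 of the signal in H3K18la and 38.9% ± 1.08 in H3K27ac (adjusted p = 0.857), and a shared place held 1.73 ± 0.163 and 1.68 ± 0.443 peaks (adjusted p = 0.914). H3K27ac 4 dpi replicate 1 had 1.02 peaks per shared place, against 1.83 to 1.93 in the other H3K27ac libraries.

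The 2 marks ordered the shared places less alike than libraries of one mark did. Spearman's rho across the 6305 places was 0.770 to 0.894 between H3K18la libraries, 0.687 to 0.902 between H3K27ac libraries and 0.496 to 0.639 over the 16 pairs of one of each. Places are not independent replicates, and the pairs within a mark mostly share a library code, so these are descriptions. The median distance between highest points was 87 to 116 bp within H3K18la, 116 to 214 bp within H3K27ac and 123 to 259 bp between the marks, so the marks peaked close to each other at most shared places.

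The difference between the marks at 4 dpi minus that at 2 dpi passed at no place. The interaction of mark and day in limma gave 0 of 6305 calls (0%) with a smallest adjusted p of 0.295, and 552 places (8.75%) with an unadjusted p under 0.05. The median shift at places without H3K4me3 was 0.62 at 2 dpi and 0.51 at 4 dpi, and with H3K4me3 in 4 of 4 libraries -0.27 and -0.20. A change of the mark difference over time was thus not detected with all 8 libraries, which does not show that there was none. Leaving out 1 library gave a few calls: 2 rising without H3K18la 2 dpi replicate 1, 3 and 1 falling without H3K27ac 2 dpi replicates 1 and 2, and 1 rising and 2 falling without H3K27ac 4 dpi replicate 2.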

How the data were processed

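CUT&Tag peak lists of sorted mouse muscle macrophages were used, 4 for H3K18la and 4 for H3K27ac, with the lists of H3K4me3 and H3K27me3 as further readouts. By the submitters' processing notes, reads were handled with Trim Galore 0.6.6, Bowtie2 2.4.4, SAMtools 1.13 and bedtools 2.30, and SEACR 1.3 called peaks in each library at a threshold of 0.01. The signal values that the authors deposited are the sum and the maximum of coverage over a peak, not normalised between libraries, so they were compared only as ranks or shares within a list. The lists' labels and names give GRCm39, while the methods name mm10 for the alignment. The annotation at hand was GRCm38, and coordinates were not converted, so gene names, promoter windows, GC content, gene lists and sequences were not analysed here. No blacklist filter was applied here.

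Peaks on 21 chromosomes (1 to 19, X and Y) were joined at an overlap of at least 1 bp. At shared places, normal scores of ranks, and log2 of called length, were fitted with limma 3.58.1 in R 4.3.3 across all places (trended, robust variance, mark and day as terms) with Benjamini-Hochberg adjustment, called under 0.05. The interaction of mark and day was fitted likewise. Per-library measures were compared with 2-sided exact permutation tests, 4 libraries against 4, adjusted over 6 planned and separately over 3 added measures. All treat libraries as independent. The limma step was tested on simulated data. Alternatives were ranks by maximum signal or by signal per called base, lists of equal length, the stronger 50% of peaks, a stricter overlap, joining without H3K27ac 4 dpi replicate 1, no H3K27me3 places, no day term, the replicate block and leaving out each library. Named places were the 10 (rank) or 5 (length) smallest adjusted p per direction among those with non-overlapping groups, and the 10 highest mean percentiles per one-mark class; places with H3K27me3 in 4 of 4 libraries or on chromosome 18 were not named. The comparison, its measures and its alternatives were chosen with earlier results of these data known. Whether same-numbered libraries of the marks came from the same mice or sort is not known, and no pairing was assumed. The study says that the marks were profiled in the same samples, but the labels do not pair the libraries. Deviations of same-numbered libraries of the marks correlated at 0.0323 at 2 dpi and -0.0399 at 4 dpi. Such low values cannot exclude a pairing, since other differences between libraries can hide it.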

Additional observations from a re-analysis of the deposited data

Results flagged for a closer look

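Of 98 groups of 4 libraries examined, 9 held a lone value by Dixon's criterion. Chance gives about 5% of groups, and many of these groups are not independent. For 5 of the 9 the lone library was H3K27ac 4 dpi replicate 1 in a measure of the whole list or of a class of places. It covered 204.6 Mb against 37.8 to 65.3 Mb in the other H3K27ac libraries, and its median peak width was 4250 bp against 1218 to 1718.5 bp. It had 1.02 peaks per shared place against 1.83 to 1.93. Its percentile at H3K4me3 minus away from it was 28.9 points against 40.8 to 42.0, and its median percentile at places without H3K4me3 was 26.7 against 20.6 to 21.1. It alone carries its library code, so the code and the library cannot be told apart.

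H3K18la 2 dpi replicate 1, the longest list of its mark, had 1.97 peaks per shared place against 1.62 to 1.67 in the other H3K18la libraries. Among the named places, H3K27ac 4 dpi replicate 1 was at a percentile of 57.3 on chromosome 5 from 18058181, with the other H3K27ac libraries at 67.7 to 69.1. H3K18la 2 dpi replicate 1 was at 31.4 on chromosome 8 from 19825033, against 7.10 to 9.73. H3K18la 2 dpi replicate 2 was at 52.0 on chromosome 14 from 14597393, an H3K18la-only place, against 67.7 to 69.5.

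Mitochondrial peaks were left out of every comparison. They held 4.08% of the signal of an H3K18la list on average (2.90% to 5.20%) and 0.225% of that of an H3K27ac list (0.0613% to 0.356%), so the marks did not overlap in this share. The library codes differ between the marks as well. The part of this signal in the results was not tested.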

How the results depend on the processing

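Depth is unknown and mark cannot be told apart from library code, so no alternative separates them. Planned promoter windows, promoter classes of genes and GC content were not run, for want of GRCm39 annotation. Of the values at named places under the alternatives, 590 kept direction and call or moved by less than the spread, 38 moved and 9 lost their call: 4 with signal per called base and the 5 length places without H3K27ac 2 dpi replicate 1, where the log2 differences were -3.40 to -3.02. These counts leave out a named place that had no value under a setting, so places that dropped out are not among them. With only the stronger peaks of each list, 13 values were kept and 13 moved, against 45 kept without H3K18la 2 dpi replicate 1. In lists of equal length 29 were kept and 11 moved. The larger share of H3K18la calls without H3K4me3, and of H3K27ac calls with it, held in every setting run. Except where stated, the cause of the changes below was not tested.

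By signal per called base, 588 places (9.33%) ranked higher in H3K18la and 689 (10.9%) in H3K27ac. In the stronger 50% of peaks it was 536 (20.5%) and 499 (19.1%) of 2618 shared places. The H3K27ac-longer count was 351 of 4631 shared places in lists of equal length and 13 of 2618 in the stronger 50%. Where places were joined without H3K27ac 4 dpi replicate 1, 1 of 7028 was longer in H3K18la. Equal lists gave 412 H3K18la-only and 1225 H3K27ac-only places. The share of H3K18la-only places without H3K4me3 was 86.7% in equal lists and 100% without H3K27me3 places. The share of H3K27ac-only places with H3K4me3 was 95.2% in equal lists and in the stronger 50%, and 74.4% with that library left out of the joining. The median shift at H3K4me3 was -0.30 by maximum signal, -0.19 in equal lists and -0.14 in the stronger 50%, and without H3K4me3 it was 0.70 by maximum signal and 0.67 per called base.

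Per-library differences are given as H3K18la minus H3K27ac. Equal lists gave an adjusted p of 0.0429 (exact permutation test) for peaks per shared place (0.315) and signal in shared places (11.4 points). Signal in the strongest 10% (4.72 points) and percentile at H3K4me3 minus away (-35.1) had the same adjusted p. For signal in shared places and percentile at H3K4me3, the unadjusted p was already the smallest possible with the full lists. Their lower adjusted p came from other measures. Signal in the strongest 10% turned to -3.70 by maximum signal and -5.52 per called base, and the share at H3K27me3 to 0.276 in equal lists and 0.116 in the stronger 50%. For highest points inside H3K4me3 the difference stayed at -4.41 by maximum signal and per called base, since it uses only the position of the maximum. The adjusted p was 0.0857 for both, against 0.0429 (exact permutation test). That rise follows from the p of another measure of the family of 3. The difference was -4.66 in equal lists (0.0857) and -0.674 with H3K27ac 4 dpi replicate 1 left out of the joining (0.314). X minus autosomes was 12.5 by maximum signal, 3.81 per called base, 5.07 in equal lists, 17.4 in the stronger 50% and 9.03 with that joining. Peaks on X differed by -0.325 points in the stronger 50% (adjusted p = 0.0429).

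With the replicate number as a block the counts were 1277 and 1205 by rank and 1 and 499 by length (H3K18la, then H3K27ac), and the smallest p of 4 pairs is 0.125, which the differences of -4.41 and 10.8 then reached. Whether these numbers pair the libraries is not known.

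Leaving out each library in turn changed the number of shared places as well, to between 6339 and 7069. By rank it gave 1092 to 1524 places for H3K18la (16.6% to 21.6% of those shared). For H3K27ac it gave 1003 to 1461 (15.7% to 20.7%). By length it gave 0 to 1 and 0 to 1191. It gave 59 to 163 H3K18la-only and 2518 to 3845 H3K27ac-only places, with H3K4me3 shares of 94.8% to 98.9% (none) and 66.1% to 79.3% (4 of 4). The median shift was -0.28 to -0.23 at H3K4me3 and 0.50 to 0.60 without it. Changes over time numbered 0 to 2 rising and 0 to 3 falling. Peaks per place differed by -0.0293 to 0.137 (-0.00079 without H3K27ac 4 dpi replicate 1), signal in the strongest 10% by -0.0960 to 2.64, the share at H3K27me3 by -0.681 to 0.396, highest points by -4.49 to -1.31 and X minus autosomes by 8.80 to 13.5.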
